A study of Mus musculus with 6 samples.

Results

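Axon guidance ligands and receptors were followed in the auditory nerve of old and young mice. They were taken as the genes of the deposited table whose symbols carry the name of a semaphorin, plexin, neuropilin, ephrin, Eph receptor, Slit, Robo, netrin, Unc5 receptor or Dcc, and whose mean over the 6 libraries was at least 10 normalised read counts. This gave 70 of 17607 genes. Of 72 matching symbols, Slit1 (mean 5.92) and Robo3 (mean 2.53) lay under the floor, and the lowest genes above it were Plxna4os1 (10.2), Unc5cl (15.4), Efna3 (15.6) and Epha6 (22.1). Of the 70, 3 share only the spelling: Unc50 is a Golgi protein, Unc5cl a membrane-anchored death domain protein without the netrin-binding part of the Unc5 receptors, and Plxna4os1 an antisense transcript of the Plxna4 locus. The others are 34 ligands and 33 receptors or co-receptors. A semaphorin or an ephrin-B can also act as a receptor, so the split is by the name of the family. All 70 passed the filter for testing.

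The study compared 3 old mice, aged 2.5 years, with 3 young adult mice, aged 2 months, all of the inbred strain CBA/CaJ, which is widely used in hearing research. No allele, transgene or treatment is given for either age. Each library holds nerve tissue microdissected from both cochleas of 1 mouse, pooled, so replicates are separate animals. Reads per library came to between 34587979 and 38835751 in old nerves and between 35213213 and 40841478 in young nerves.

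Guidance molecules steer growing axons by attraction and repulsion. Secreted class 3 semaphorins bind neuropilins, which signal through plexins, whereas most membrane-bound semaphorins bind plexins directly. Ephrins and Eph receptors signal in both directions between touching cells: ephrin-As hang on a lipid anchor and mainly bind EphA receptors, and ephrin-Bs span the membrane and mainly bind EphB receptors. Slits act on Robos, and netrins attract through Dcc and repel through Unc5 receptors. In the developing cochlea such signals guide the peripheral fibres of spiral ganglion neurons toward the hair cells. Many of the same genes stay active in adult neurons, glia, vessels and bone.

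The dissected tissue carried the markers of a nerve with its surroundings. All 12 listed spiral ganglion neuron markers and all 8 Schwann cell markers were detected in every library, and markers of vessel, fibroblast, bone, cartilage and macrophage were present too. T and B cell markers were close to absent, with a summed level of 44.4 to 105 counts in old nerves and 48.5 to 79.6 in young nerves. The neuron markers summed to between 320289 and 452380 counts in old nerves and between 485934 and 507342 in young nerves, with 5 of 12 lower and none higher. The macrophage markers summed to between 10537 and 15220 in old nerves and between 4129 and 5413 in young nerves, and all 8 rose. Cartilage markers summed to between 4058 and 5294 in old nerves and between 11318 and 13811 in young nerves (2 of 4 lower), and 5 of 9 bone cell markers fell. The bone cell marker sums overlapped, but Spp1 made up most of them. It stood at 105346 to 118443 in old nerves and 106277 to 108898 in young nerves (log2 fold change, old minus young, 0.07). Of the bone cell markers that fell, Sp7, Ibsp, Phex and Mepe did not overlap between the ages, and Alpl did. In tissue samples of this kind, fewer cells of a type and less RNA per cell cannot be told apart. The part of these shifts in the results below was not tested.

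Guidance genes were more often lower than higher in old nerves. Of the 70, 33 fell and 5 rose at an adjusted p under 0.05 in limma, or 47.1% and 7.14%, where 18.7% of all 15882 tested genes fell and 15.9% rose (34.6% in either direction). Falls with a log2 change of -0.58 or below numbered 24 and rises of 0.58 or above 1, which is Efna4, against 8.51% and 7.37% of all tested genes. The median log2 fold change, old minus young, was -0.51 over the 70 and 0.00 over all tested genes. The counts were similar for ligands and receptors: 16 of 34 ligands fell and 2 rose (median -0.52), and 17 of 33 receptors fell and 2 rose (median -0.49). The remaining rise was that of Unc50, 1 of the 3 genes that match by name only. All 3 old libraries lay below all 3 young libraries in 38 of the 70 (54.3%, against 26.3% of all tested genes) and above them in 5 (7.14%, against 25.5%). With upper-quartile scaling 27 members fell and 5 rose, against 14.7% of all genes lower and 21.7% higher. Long transcripts tended to be lower in old nerves across the whole table (Spearman's rho of length and log2 fold change -0.377 across 15654 genes, which are not independent replicates), and the members are long (median 4730.5 nt, against 3101 nt over tested genes). With smooth trends in transcript length and GC content removed from each library, 15 of the 70 fell and 6 rose (21.4% and 8.57%), where 12.1% of all genes fell and 11.8% rose.

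**Figure D1:**
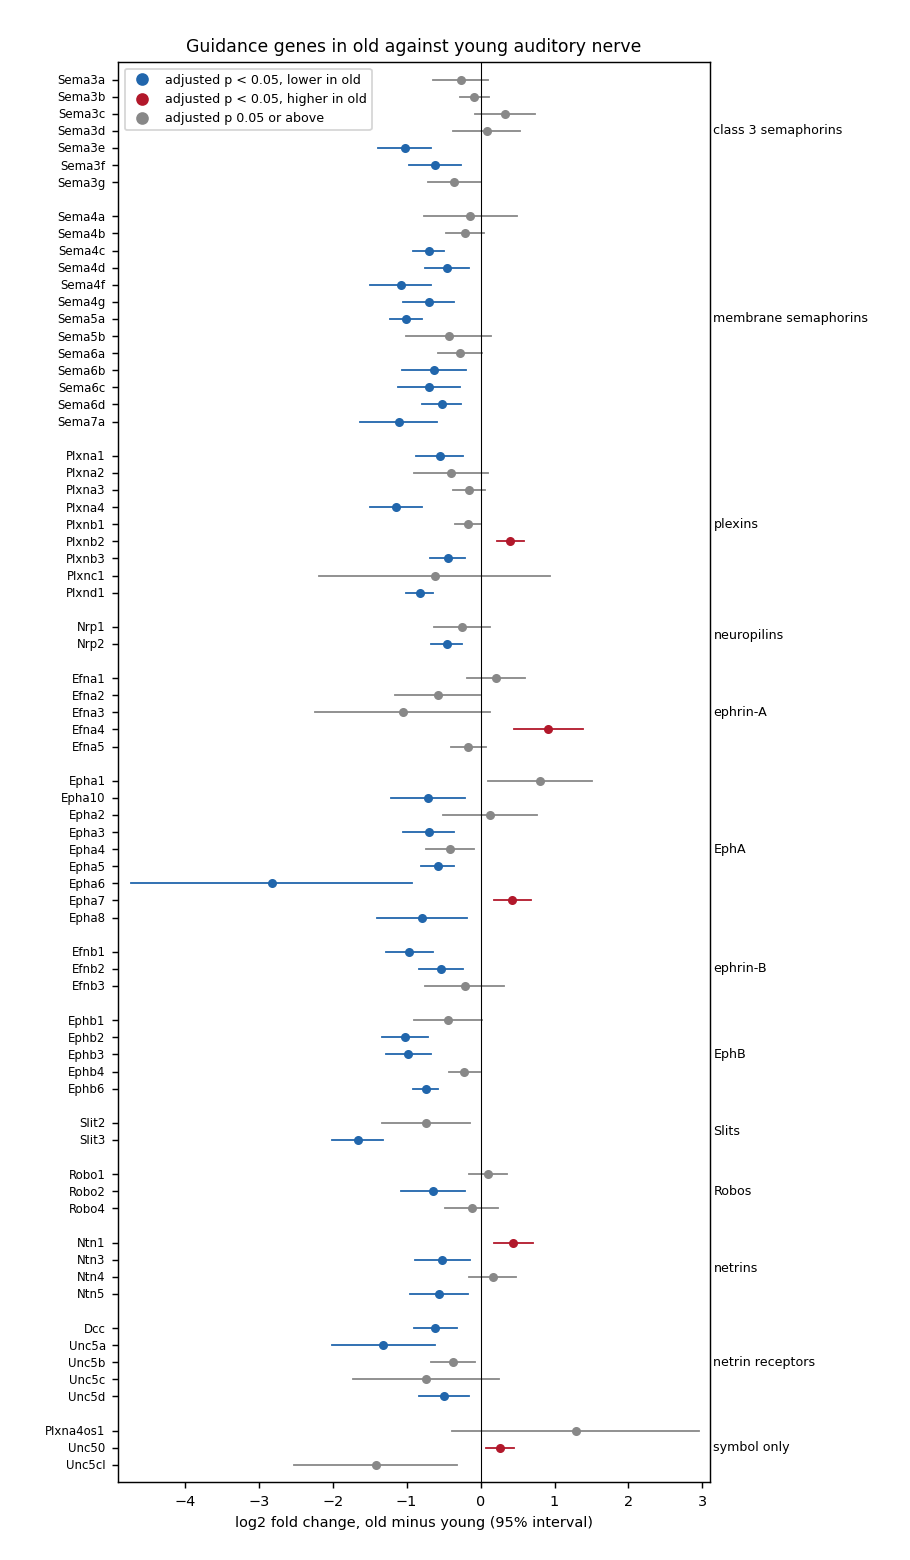
Log2 fold change, old minus young, of each of the 70 genes (x axis; points) with its 95% interval from limma (lines), grouped by family down the page. Blue genes are lower and red genes higher in old nerves at an adjusted p under 0.05; 33 points are blue and 5 are red.

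**Figure D2:**
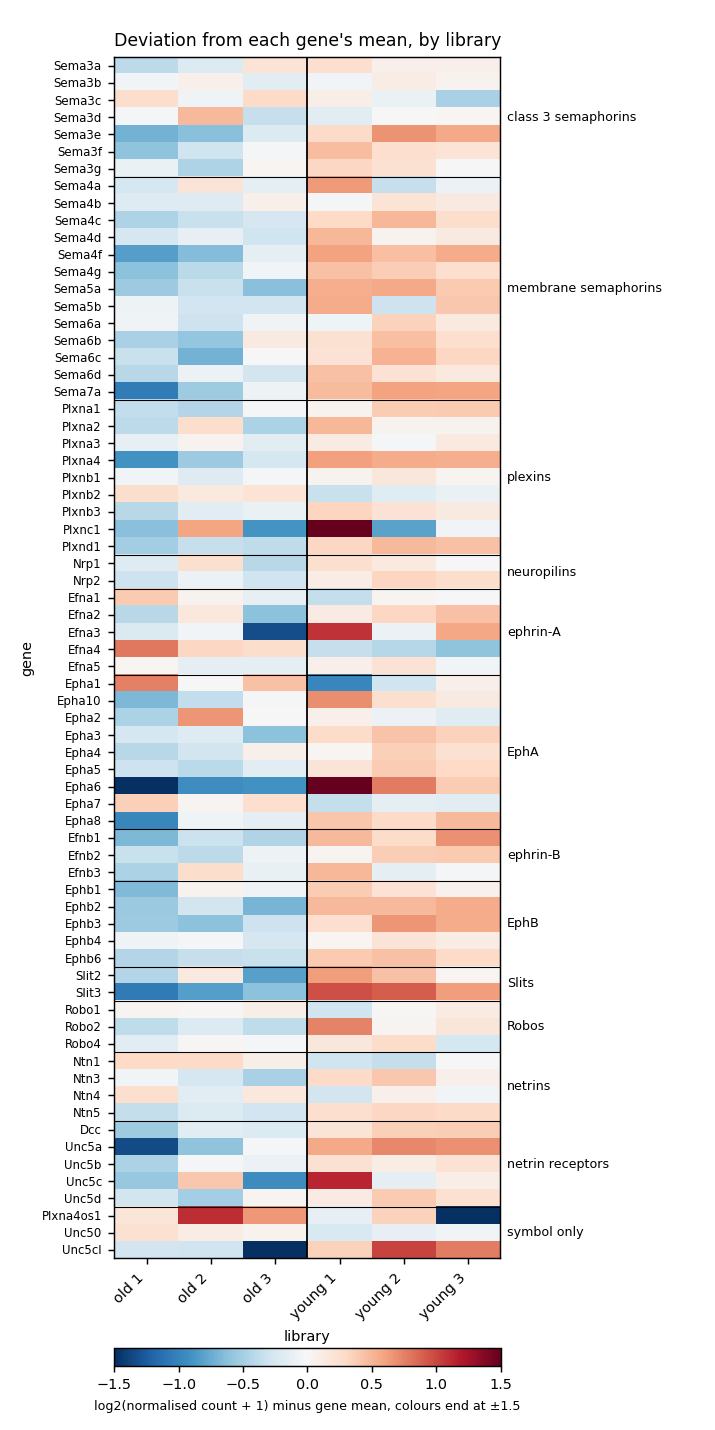
Each row is a gene and each column a library, old 1 to 3 left of young 1 to 3; colour is log2(normalised count + 1) minus the gene's mean over the 6 libraries, with colours ending at ±1.5. The membrane semaphorins and EphB receptors are mostly blue in old and red in young libraries, whereas Plxnc1 and Unc5c are red in old 2 and young 1.

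Promoters are shown for Slit3, which had the largest fall apart from the sparsely read Epha6, for Sema3e and its receptor gene Plxnd1, which fell together, and for Plxnb2, the most abundant member that rose. Each runs from 250 bases before to 50 bases after the RefSeq start in GRCm38.p6. Slit3 is at chr11:35121206-35121505 (forward strand), Sema3e at chr5:14025026-14025325 (forward strand), Plxnd1 at chr6:115994956-115995255 (reverse strand) and Plxnb2 at chr15:89180739-89181038 (reverse strand). Capitals mark matches to the GC box GGGCGG on either strand, the binding motif of Sp1-type factors.
Slit3: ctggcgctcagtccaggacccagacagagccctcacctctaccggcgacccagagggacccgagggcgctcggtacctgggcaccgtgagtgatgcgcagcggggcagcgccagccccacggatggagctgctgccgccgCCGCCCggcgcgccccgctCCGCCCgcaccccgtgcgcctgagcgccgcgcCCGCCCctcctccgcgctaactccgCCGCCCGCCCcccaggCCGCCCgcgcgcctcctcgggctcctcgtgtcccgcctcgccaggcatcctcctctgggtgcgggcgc
Sema3e: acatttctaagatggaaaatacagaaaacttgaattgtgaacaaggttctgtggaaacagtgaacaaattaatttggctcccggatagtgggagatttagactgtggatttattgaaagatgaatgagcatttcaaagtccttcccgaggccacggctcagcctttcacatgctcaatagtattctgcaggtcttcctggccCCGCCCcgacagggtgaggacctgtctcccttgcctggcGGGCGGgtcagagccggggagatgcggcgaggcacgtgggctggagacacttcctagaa
Plxnd1: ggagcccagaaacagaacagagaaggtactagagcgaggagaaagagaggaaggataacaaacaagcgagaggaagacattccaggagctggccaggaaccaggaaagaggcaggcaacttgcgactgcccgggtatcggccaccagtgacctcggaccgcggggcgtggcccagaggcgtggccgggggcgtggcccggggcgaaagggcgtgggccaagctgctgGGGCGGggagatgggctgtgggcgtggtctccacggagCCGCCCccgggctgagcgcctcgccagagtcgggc
Plxnb2: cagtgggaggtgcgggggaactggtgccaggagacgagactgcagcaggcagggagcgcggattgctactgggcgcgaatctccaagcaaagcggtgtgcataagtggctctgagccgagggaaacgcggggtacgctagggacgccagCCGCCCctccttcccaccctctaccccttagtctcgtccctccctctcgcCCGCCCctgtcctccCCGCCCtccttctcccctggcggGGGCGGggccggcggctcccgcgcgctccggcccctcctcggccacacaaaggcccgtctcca
The GC box had 6 matches in Slit3, 2 of them overlapping, 2 in Sema3e, 2 in Plxnd1 and 4 in Plxnb2. The TATA box letters TATAAA had no match on either strand in the 4 windows. The same held for the CCAAT box and for the cyclic AMP response element, searched as TGACGTCA. RefSeq promoters were matched for 60 of the 70 members. The GC box was in 44 of these 60 (73.3%) and in 58.4% of 13521 promoters of the deposited genes, and TATAAA was in 2 (3.33%, against 8.25%). The GC box was in 20 of the 28 matched members that fell and in 21 of the 28 that were not called. The median number of CpG dinucleotides per window was 22.5 in members and 18 in all.

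Sema3e and Sema3f were the secreted semaphorins that fell, and no class 3 semaphorin rose, out of 7 tested (median log2 fold change -0.27). Sema3e, which binds plexin D1 without a neuropilin, stood at 2366, 2509 and 3355 normalised counts in old 1, 2 and 3, against 4735, 6183 and 5753 in young 1, 2 and 3 (log2 fold change -1.03 ± 0.15, adjusted p = 0.00591; ± is the standard error of the fit, n = 3 a group). The old and young libraries did not overlap, and old 3 was the highest of the old. Sema3f, which repels axons through neuropilin-2, stood at 922, 1142 and 1379 in old 1, 2 and 3, against 1933, 1675 and 1623 in young 1, 2 and 3 (log2 fold change -0.62 ± 0.15, adjusted p = 0.0198), also without overlap. It did not pass without young 1 or young 2 (adjusted p = 0.0592 to 0.0612) or with the length and GC trends removed (-0.37, adjusted p = 0.0642).

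Sema3b was the most abundant secreted member, at 7928, 8639.7 and 7322 in old 1, 2 and 3, against 7926, 8872 and 8512 in young 1, 2 and 3, and the groups overlapped (-0.09, adjusted p = 0.459; 95% interval -0.28 to 0.11). Sema3a, the ligand of neuropilin-1 and plexin A receptors, stood at 450.3, 514 and 682 in old 1, 2 and 3, against 708, 623 and 624 in young 1, 2 and 3 (-0.27, adjusted p = 0.227), and passed without old 3 (-0.43, adjusted p = 0.0266). Sema3c (0.33), Sema3d (0.08) and Sema3g (-0.36) did not pass either. Per kilobase of transcript, the 7 summed to 3650, 4083 and 3717 normalised counts in old 1, 2 and 3, against 4317, 4740 and 4524 in young 1, 2 and 3. Sema3b alone gave most of that level in either group.

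Semaphorins bound to the membrane were the family with the most falls in number. Of 13, 9 fell and none rose (median -0.63), and 5 of the 9 kept the call once the length and GC trends were taken out. Sema7a is held by a lipid anchor and acts on plexin C1 and on beta1 integrins. It had the highest level per kilobase of all guidance genes at either age, 3121 per kilobase in old nerves and 6494 in young nerves. Its counts were 7033, 10066 and 13768 in old 1, 2 and 3, against 20236, 22081 and 21918 in young 1, 2 and 3 (log2 fold change -1.11 ± 0.22, adjusted p = 0.0106). The old nerves spread over a wide range, with old 1 lowest and old 3 highest, and still lay below every young nerve. Removing the trends gave -0.90, adjusted p = 0.0192. Leaving out both young 1 and old 2 gave -1.16, adjusted p = 0.0613, which no longer passes.

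Sema5a, a transmembrane semaphorin with thrombospondin repeats, stood at 4551, 5252 and 4282 in old 1, 2 and 3, against 9712, 9820.02 and 8737 in young 1, 2 and 3 (log2 fold change -1.01 ± 0.09, adjusted p = 0.00399). Sema4c, a ligand of plexin B2, stood at 3037, 3309.8 and 3515 in old 1, 2 and 3, against 5144, 5896 and 5041 in young 1, 2 and 3 (log2 fold change -0.70 ± 0.09, adjusted p = 0.00486). In both genes the replicates were close together and the ages far apart. Sema4f stood at 292, 330.2 and 469.99 in old 1, 2 and 3, against 789.8, 713 and 766 in young 1, 2 and 3 (log2 fold change -1.08 ± 0.18, adjusted p = 0.00699), without overlap and with old 3 nearest to the young nerves. Sema4g stood at 1235, 1436 and 1849.97 in old 1, 2 and 3, against 2577, 2439.8 and 2253 in young 1, 2 and 3 (log2 fold change -0.70 ± 0.14, adjusted p = 0.0120). Leaving out both young 1 and old 2 gave -0.99, adjusted p = 0.0533 for Sema4f and -0.63, adjusted p = 0.0839 for Sema4g, neither past the threshold. With the trends removed Sema5a (-0.67), Sema4c (-0.45), Sema4f (-0.80) and Sema4g (-0.38) still passed.

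Class 6 semaphorins, which act through plexin A receptors, fell in 3 of 4 cases. Sema6d, the ligand of plexin A1, stood at 3489.7, 4384 and 3855 in old 1, 2 and 3, against 6317, 5416 and 5176 in young 1, 2 and 3 (log2 fold change -0.53 ± 0.11, adjusted p = 0.0123). Sema6b stood at 1312, 1233 and 2021 in old 1, 2 and 3, against 2164, 2531 and 2200.2 in young 1, 2 and 3 (log2 fold change -0.63 ± 0.18, adjusted p = 0.0364) and Sema6c at 1602, 1232 and 2029 in old 1, 2 and 3, against 2358, 2891 and 2501 in young 1, 2 and 3 (log2 fold change -0.70 ± 0.18, adjusted p = 0.0225). Old 3 was the highest old nerve in Sema6b and Sema6c, just below the young range. Sema6b did not pass without old 1, old 2, young 1, young 2 or young 3 (adjusted p = 0.0686 to 0.118), nor Sema6c without old 1, young 2 or young 3 (adjusted p = 0.0594 to 0.0827). With the trends removed Sema6d (-0.28, adjusted p = 0.0945), Sema6b (-0.13, adjusted p = 0.456) and Sema6c (-0.17, adjusted p = 0.395) did not pass.

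Among the rest, Sema4d, the ligand of plexin B1 that also acts on lymphocytes, averaged 933 ± 59.3 in old nerves and 1288 ± 221 in young nerves (SD, n = 3 each; log2 fold change -0.45 ± 0.13, adjusted p = 0.0311). Its call was lost without old 1, old 3, young 1 or young 3 (adjusted p = 0.0612 to 0.0807), and with the trends removed (-0.26, adjusted p = 0.175). Sema4a (-0.14), Sema4b (-0.21; it passed without old 3 at -0.30, adjusted p = 0.0499), Sema5b (-0.43) and Sema6a (-0.28) did not pass. The 13 summed to 5629, 6766 and 8334 counts per kilobase in old 1, 2 and 3, against 12146, 12889 and 12265 in young 1, 2 and 3 without overlap, with Sema7a the largest contributor in either group.

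Plexins, the signalling receptors of semaphorins, changed in both directions: of 9, 4 fell and 1 rose (median -0.45). Plxna4, a receptor for class 6 semaphorins and, with neuropilin-1, for Sema3a, stood at 2134, 2738 and 3318 in old 1, 2 and 3, against 6122, 5873 and 5823 in young 1, 2 and 3 (log2 fold change -1.14 ± 0.15, adjusted p = 0.00499). Young nerves differed little and all old nerves were far lower. Plxnd1, the receptor of Sema3e and a regulator of vessel growth, stood at 3093, 3494 and 3404 in old 1, 2 and 3, against 5491, 6216 and 5996 in young 1, 2 and 3 (log2 fold change -0.83 ± 0.08, adjusted p = 0.00399). Its log2 fold change was -0.22, adjusted p = 0.0875 with the trends removed, whereas Plxna4 still passed (-0.66, adjusted p = 0.0141).

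Plxnb2, the receptor of Sema4c, went the other way, at 7801, 7187 and 7472 normalised counts in old 1, 2 and 3, against 5166, 5759 and 6091 in young 1, 2 and 3 (log2 fold change 0.40 ± 0.08, adjusted p = 0.0105). Every old library was above every young one, the rise passed with any 1 library left out, and it was larger with the trends removed (0.85, adjusted p = 0.00815). Leaving out both young 1 and old 2 gave 0.37, adjusted p = 0.0615, just short of the threshold. Sema4c, which encodes its ligand, fell in the same 6 libraries. Plexin B2 is also found on macrophages, whose 8 markers rose in old nerves. The part of macrophages in this rise was not tested.

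Plxna1, the plexin with the most counts in young nerves, where Plxnb2 had the most in old nerves, stood at 5199, 4965 and 6609 in old 1, 2 and 3, against 6997, 8721 and 8852 in young 1, 2 and 3 (log2 fold change -0.55 ± 0.14, adjusted p = 0.0207). It did not pass without old 1, old 2, young 2 or young 3 (adjusted p = 0.0592 to 0.0769), and after removal of the trends it stood at -0.01, adjusted p = 0.964. Plxnb3 averaged 1288 ± 147 in old nerves and 1749.8 ± 119 in young nerves (log2 fold change -0.45 ± 0.10, adjusted p = 0.0168) and did not pass without young 1 or young 2 (adjusted p = 0.0562 to 0.0588) or with the trends removed (-0.07, adjusted p = 0.526). Plxnb1, the receptor of Sema4d, stood at 5169.5, 4638 and 5212 in old 1, 2 and 3, against 5502, 5980.5 and 5477 in young 1, 2 and 3 (-0.18, adjusted p = 0.104), without overlap. Its sign turned with the trends removed, where it was higher in old nerves (0.37, adjusted p = 0.0239). Plxna2 (-0.40), Plxna3 (-0.16) and Plxnc1 (-0.62) did not pass. Without old 2, Plxna2 passed (-0.63, adjusted p = 0.0290). The plexins summed to 3537, 3685 and 3809 counts per kilobase in old 1, 2 and 3, against 4549, 4617 and 4625 in young 1, 2 and 3.

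Neuropilins, the co-receptors of class 3 semaphorins and of VEGF, differed in their calls. Nrp2 stood at 2187, 2554 and 2203 in old 1, 2 and 3, against 2916, 3374 and 3255 in young 1, 2 and 3 (log2 fold change -0.46 ± 0.09, adjusted p = 0.0104), without overlap, and with the trends removed it did not pass (-0.17, adjusted p = 0.202). Nrp1 stood at 3285, 4434 and 2827 in old 1, 2 and 3, against 4426, 4154 and 3739.6 in young 1, 2 and 3 (-0.25, adjusted p = 0.266; 95% interval -0.62 to 0.13), with old 2 as high as the highest young library, and it passed without old 2 (-0.43, adjusted p = 0.0340). Whether the change of Nrp2 differs from that of Nrp1 was not tested.

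**Figure D3:**
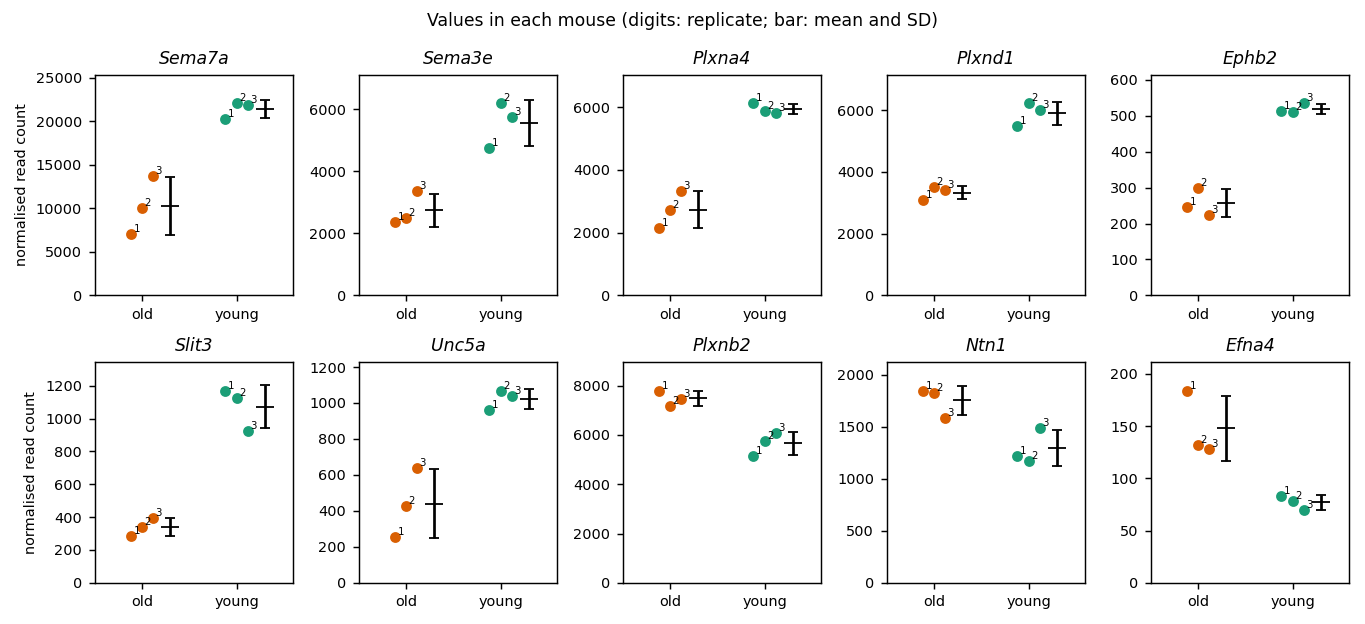
Normalised read counts (y axis, from 0) of 10 guidance genes in 3 old (orange, left) and 3 young nerves (green, right); digits give the replicate and bars the mean and SD. In each panel the old and young points do not overlap; Plxnb2, Ntn1 and Efna4 are higher in old nerves and the other 7 genes lower.

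Of 3 ephrin-B ligands 2 fell and of 5 EphB receptors 3 fell, with no rise in either family, whereas of 5 ephrin-A ligands none fell and 1 rose. The difference between the families was not tested. Efnb1 stood at 508, 647 and 592 in old 1, 2 and 3, against 1130.2, 983 and 1299 in young 1, 2 and 3 (log2 fold change -0.96 ± 0.13, adjusted p = 0.00544), and the ages did not overlap. Efnb2, the ephrin-B with the highest level and a marker of arteries, stood at 2922, 2815 and 3509 in old 1, 2 and 3, against 3784, 4786 and 4844 in young 1, 2 and 3 (log2 fold change -0.53 ± 0.13, adjusted p = 0.0176). The call was lost without old 1, old 2, young 2 or young 3 (adjusted p = 0.0514 to 0.0682), and with the trends removed (-0.37, adjusted p = 0.0646), whereas Efnb1 kept its call (-0.74, adjusted p = 0.0132). Efnb3 stood at 722, 1207 and 934 in old 1, 2 and 3, against 1417, 909 and 991 in young 1, 2 and 3 (-0.22, adjusted p = 0.484) with wide overlap.

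Ephb2 stood at 246, 299.9 and 224 in old 1, 2 and 3, against 511, 510.2 and 534 in young 1, 2 and 3 (log2 fold change -1.02 ± 0.13, adjusted p = 0.00499). Ephb3 stood at 745, 709.8 and 874 in old 1, 2 and 3, against 1295, 1718 and 1591 in young 1, 2 and 3 (log2 fold change -0.98 ± 0.13, adjusted p = 0.00509). In both receptors the ages were far apart, and Ephb2 hardly varied among young nerves. Ephb6, whose kinase domain is inactive, stood at 1437, 1536 and 1548 in old 1, 2 and 3, against 2554, 2640.3 and 2368 in young 1, 2 and 3 (log2 fold change -0.74 ± 0.07, adjusted p = 0.00399). The calls of Ephb3 (-0.65, adjusted p = 0.0149) and Ephb6 (-0.41, adjusted p = 0.0138) held with the trends removed, and that of Ephb2 did not (-0.48, adjusted p = 0.0604). Ephb4, the venous partner of ephrin-B2, stood at 1857, 1903 and 1619 in old 1, 2 and 3, against 1962, 2211 and 2076 in young 1, 2 and 3 (-0.22, adjusted p = 0.0899), and Ephb1 at 316, 521 and 481 in old 1, 2 and 3, against 649.7, 581 and 525 in young 1, 2 and 3 (-0.44, adjusted p = 0.122). In both, every old library was below every young one although the test was not passed. The EphB genes summed to 1057, 1135 and 1092 counts per kilobase in old 1, 2 and 3, against 1590, 1744 and 1604 in young 1, 2 and 3.

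Of 9 EphA receptors 5 fell and 1 rose (median -0.58). Epha5 stood at 803, 751 and 886 in old 1, 2 and 3, against 1136, 1298 and 1218 in young 1, 2 and 3 (log2 fold change -0.58 ± 0.09, adjusted p = 0.00671) and Epha3 at 239, 249 and 185 in old 1, 2 and 3, against 343, 383 and 361 in young 1, 2 and 3 (log2 fold change -0.70 ± 0.15, adjusted p = 0.0124), both without overlap and both past the threshold with the trends removed (-0.47 and -0.65). Epha3 did not pass without young 2 (adjusted p = 0.0548). Epha10, another Eph receptor with an inactive kinase, stood at 197, 244 and 310.4 in old 1, 2 and 3, against 511, 374 and 347 in young 1, 2 and 3 (log2 fold change -0.71 ± 0.21, adjusted p = 0.0384), and Epha8 at 70.8, 134 and 127 in old 1, 2 and 3, against 188, 171 and 196 in young 1, 2 and 3 (log2 fold change -0.79 ± 0.26, adjusted p = 0.0499). These calls were near the threshold. Epha10 did not pass without old 1, old 2, young 1, young 2 or young 3 (adjusted p = 0.0594 to 0.105) and Epha8 did not pass without old 1, young 1, young 2 or young 3 (adjusted p = 0.0623 to 0.137), with a log2 fold change of -0.50 without old 1. Neither passed with the trends removed (-0.30, adjusted p = 0.265 in Epha10 and -0.30, adjusted p = 0.357 in Epha8), nor did Epha8 in edgeR with TMM scaling (adjusted p = 0.0578).

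Epha6 had few reads, at 1.06, 4.74 and 4.84 normalised counts in old 1, 2 and 3, against 91.2, 17.7 and 13.2 in young 1, 2 and 3 (log2 fold change -2.82 ± 0.81, adjusted p = 0.0336). Young 1 alone held most of its reads, and it did not pass without old 1, old 2, young 1 or young 2 (adjusted p = 0.0543 to 0.0966). Epha7 rose, at 3495, 2789 and 3239 in old 1, 2 and 3, against 2118, 2486 and 2445 in young 1, 2 and 3 (log2 fold change 0.43 ± 0.10, adjusted p = 0.0198), and old and young libraries did not overlap. It did not pass without old 1, young 1, young 2 or young 3 (adjusted p = 0.0504 to 0.0607), but passed with the trends removed (0.54, adjusted p = 0.0149). Epha4, which binds ephrins of both classes and was the most abundant Eph gene, stood at 2972, 3263 and 4174 in old 1, 2 and 3, against 4058, 5085 and 4644 in young 1, 2 and 3 (-0.41, adjusted p = 0.0565), and it passed without old 3 (-0.56, adjusted p = 0.0102). Epha1 (0.80, adjusted p = 0.0768) and Epha2 (0.13) did not pass. Epha1 overlaps Zyx on the opposite strand, which is more abundant.

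Efna4 rose, at 184, 132 and 128 in old 1, 2 and 3, against 82.7, 78.6 and 69.4 in young 1, 2 and 3 (log2 fold change 0.92 ± 0.20, adjusted p = 0.0141). All old nerves were above all young ones, with old 1 highest, and the rise remained with the trends removed (0.82, adjusted p = 0.0329). The call was lost without young 2 or young 3 (adjusted p = 0.0507 to 0.0530). Efna5, the ephrin-A with the most counts, stood at 716, 639 and 639 in old 1, 2 and 3, against 742, 814 and 682 in young 1, 2 and 3 (-0.16, adjusted p = 0.238; 95% interval -0.40 to 0.07) and Efna1 at 797, 629 and 555 in old 1, 2 and 3, against 475, 625 and 605 in young 1, 2 and 3 (0.21, adjusted p = 0.353). Efna2 (-0.58; it passed without old 2 at -0.81, adjusted p = 0.0400) and Efna3 (-1.05, at means of 9.92 in old and 21.3 in young nerves) did not pass.

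Slit3 had the largest fall among members past the threshold, apart from the sparsely read Epha6. Its values were 286, 339 and 393 normalised counts in old 1, 2 and 3, against 1171, 1124 and 926 in young 1, 2 and 3 (log2 fold change -1.66 ± 0.15, adjusted p = 0.00399), a 3.17-fold lower level on the fitted scale. Old and young libraries were far apart and the call held with any 1 library left out, with the trends removed (-1.31, adjusted p = 0.00693) and without both young 1 and old 2 (-1.60, adjusted p = 0.0243). Slit3 is made by cells of bone as well as by nerve and vessel cells in mice. In old nerves 5 of 9 bone cell, 2 of 4 cartilage and 3 of 6 fibroblast markers fell. Falls were also seen in 5 of 12 neuron and 4 of 8 Schwann cell markers. So did 3 of 6 pericyte and smooth muscle markers and 1 of 8 endothelial markers. No marker of these lists rose. The part of these cell types in the fall of Slit3 was not tested. Slit2 stood at 1335, 2009.8 and 1034 in old 1, 2 and 3, against 2806, 2471 and 1858 in young 1, 2 and 3 (-0.74, adjusted p = 0.0582), with old 2 inside the young range. It passed without old 2 (-0.996, adjusted p = 0.0209) and without both young 1 and old 2 (-0.87, adjusted p = 0.0458). Slit1 was under the floor, at 1.06, 1.9 and 3.87 in old 1, 2 and 3, against 14.1, 6.88 and 7.71 in young 1, 2 and 3.

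Of 3 Robo receptors 1 fell and none rose (median -0.12). Robo2 stood at 343, 388 and 342.3 in old 1, 2 and 3, against 746, 459 and 507 in young 1, 2 and 3 (log2 fold change -0.64 ± 0.19, adjusted p = 0.0348), with young 1 the highest. Its call was lost without old 1, old 2, old 3, young 1 or young 3 (adjusted p = 0.0559 to 0.0916), and with the trends removed (-0.45, adjusted p = 0.123). Robo1 was the most abundant, at 2526, 2487 and 2615 in old 1, 2 and 3, against 1997, 2474 and 2675 in young 1, 2 and 3 (0.10, adjusted p = 0.487), and was higher in old nerves with the trends removed (0.41, adjusted p = 0.0341). Robo4, a receptor of endothelial cells, stood at 532, 606 and 584 in old 1, 2 and 3, against 670.4, 726 and 497 in young 1, 2 and 3 (-0.12, adjusted p = 0.567). Summed per kilobase, the Slits were at 189, 267 and 179 in old 1, 2 and 3, against 506, 463 and 364 in young 1, 2 and 3. The Robos were at 481, 496 and 504 in old 1, 2 and 3, against 486, 527 and 513 in young 1, 2 and 3. The ages were apart in the sum of the ligands and overlapped in that of the receptors. The difference between these shifts was not tested.

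Of 4 netrins 2 fell and 1 rose, and of 5 netrin receptors 3 fell and none rose. Ntn1, the attractant read by Dcc, stood at 1848, 1824 and 1589 normalised counts in old 1, 2 and 3, against 1222, 1169 and 1489 in young 1, 2 and 3 (log2 fold change 0.44 ± 0.11, adjusted p = 0.0222). Old libraries were all above young ones, and with the trends removed the difference was larger (0.88, adjusted p = 0.0121), although Ntn1 did not pass without old 1, old 2, young 1 or young 2 (adjusted p = 0.0622 to 0.0815). Dcc stood at 415, 535 and 521 in old 1, 2 and 3, against 688, 771 and 782 in young 1, 2 and 3 (log2 fold change -0.61 ± 0.12, adjusted p = 0.0114). Unc5a, a repulsive netrin receptor found in neurons, stood at 255, 424 and 637 in old 1, 2 and 3, against 961, 1068 and 1041 in young 1, 2 and 3 (log2 fold change -1.32 ± 0.30, adjusted p = 0.0154). The old nerves of Unc5a spread widely, from old 1 to old 3, below a tight young group. Dcc did not pass with the trends removed (-0.33, adjusted p = 0.102), whereas Unc5a did (-0.83, adjusted p = 0.0397). Unc5a did not pass without young 2 or young 3 (adjusted p = 0.0517 to 0.0582). It overlaps the less abundant Hk3 on the opposite strand.

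Unc5d, the most abundant Unc5 gene, stood at 2033, 1727 and 2515 in old 1, 2 and 3, against 2664, 3218 and 2873 in young 1, 2 and 3 (log2 fold change -0.49 ± 0.14, adjusted p = 0.0341). Its call was lost without old 1, old 2, young 1, young 2 or young 3 (adjusted p = 0.0519 to 0.115), and with the trends removed (-0.24, adjusted p = 0.207). Unc5b, which is also active in vessels, stood at 792, 1088 and 1038 in old 1, 2 and 3, against 1287, 1191 and 1282 in young 1, 2 and 3 (-0.38, adjusted p = 0.0552), without overlap of the ages. It passed without old 2 (-0.47, adjusted p = 0.0447), and its sign turned with the trends removed (0.08, not past the threshold). Unc5c did not pass (-0.74).

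The other netrins gave mixed values. Ntn3 averaged 211 ± 32.7 in old nerves and 302 ± 33.8 in young nerves (log2 fold change -0.52 ± 0.16, adjusted p = 0.0426) and Ntn5 64.8 ± 3.5 in old nerves and 96.4 ± 2.18 in young nerves (log2 fold change -0.57 ± 0.17, adjusted p = 0.0374). Ntn5 did not pass with any 1 library left out (adjusted p = 0.0591 to 0.118), and Ntn3 did not without old 2, old 3, young 1, young 2 or young 3 (adjusted p = 0.0624 to 0.142). Neither passed with the trends removed (-0.06, adjusted p = 0.849 in Ntn3 and -0.38, adjusted p = 0.143 in Ntn5). Ntn3 overlaps the far more abundant Tbc1d24 on the same strand and Ntn5 overlaps Sec1 on the opposite strand, so their reads are uncertain. Ntn4, a basement membrane netrin that binds laminin, stood at 1199, 899.6 and 1123 in old 1, 2 and 3, against 833, 1059 and 976 in young 1, 2 and 3 (0.16, adjusted p = 0.380; 95% interval -0.16 to 0.49).

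The 3 genes that match by name only are not guidance molecules, and 1 of them passed. Unc50 stood at 2108, 1937 and 1857 in old 1, 2 and 3, against 1526, 1651 and 1746 in young 1, 2 and 3 (log2 fold change 0.26 ± 0.08, adjusted p = 0.0441) and did not pass without old 1, old 2, young 1, young 2 or young 3 (adjusted p = 0.0684 to 0.137). With the trends removed its sign turned (-0.07, adjusted p = 0.439). Unc5cl averaged 8.29 ± 3.83 in old nerves and 22.5 ± 5.33 in young nerves (-1.42, adjusted p = 0.0521) and Plxna4os1 14 ± 4.75 in old nerves and 6.48 ± 4.94 in young nerves (1.28, adjusted p = 0.197). Plxna4os1 lies within the span of Plxna4 on the opposite strand. Whether their exons overlap was not checked, so the reads of Plxna4os1 are uncertain.

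The 67 guidance genes were ranked at each age by level per kilobase of the longest coding transcript. Sema7a came highest and Sema3b next at either age (Sema3b at 2335 per kilobase in old nerves and 2474 in young nerves). Some ranks moved far, such as those of Slit3 (54 in old and 40 in young nerves) and Epha7 (12 in old and 24 in young nerves). How alike the 2 orders are was not measured. Plxnb2 ranked 3 in old nerves and 8 in young nerves (1152 per kilobase in old nerves and 873 in young nerves), and Sema4c ranked 5 in old and 3 in young nerves (845 per kilobase in old nerves and 1377 in young nerves). Nrp1 ranked 4 at either age (977 per kilobase in old nerves and 1142 in young nerves). At the low end stood Epha6, Efna3, Sema5b and Epha8, none above 39.3 per kilobase in either group. The order rests on the annotated length, since the isoforms used in the nerve were not measured here.

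In 5 guidance genes, old 2 and young 1 each exceeded the next library of their group by at least 25%, a set chosen after the values were seen and given without a test. Of the 70, 14 were highest in old 2 among old and in young 1 among young nerves, which is close to the 13 highest in old 3 and young 2 and the 11 highest in old 3 and young 1. The margin of 25% in both groups was met by 1 gene for old 3 and young 1, by 1 for old 2 and young 2, and by none for the other pairs of libraries. Over all tested genes, the deviations of old 2 and young 1 from their group means correlated at 0.396. That was the highest value of any pair of an old and a young library. The share of all tested genes with this pattern is not given here. Plxnc1, the receptor of Sema7a, stood at 383, 891 and 318 normalised counts in old 1, 2 and 3, against 2014, 340.1 and 577 in young 1, 2 and 3 (-0.62, adjusted p = 0.495). Its sign rested on young 1: the log2 fold change was 0.11 without young 1 (adjusted p = 0.883) and -1.17 without young 2 (adjusted p = 0.224). Unc5c stood at 631, 1243 and 489 in old 1, 2 and 3, against 2072, 857 and 1006 in young 1, 2 and 3 (-0.74, adjusted p = 0.210). In both genes old 2 and young 1 stood far above the others of their age, and the ages overlapped. Plxna2 stood at 1959.97, 3080.1 and 1843 in old 1, 2 and 3, against 3609, 2661 and 2666 in young 1, 2 and 3 (-0.40, adjusted p = 0.180), Efnb3 is given above, and Sema4a stood at 172, 237 and 188 in old 1, 2 and 3, against 322, 163 and 195 in young 1, 2 and 3 (-0.14, adjusted p = 0.712). Sema4a, too, changed sign without young 1 (0.14, adjusted p = 0.622). Without both libraries Unc5c (-0.74, adjusted p = 0.0492) and Plxna2 (-0.49, adjusted p = 0.0385) passed as lower in old nerves, while Plxnc1 (-0.34, adjusted p = 0.404), Efnb3 (-0.21, adjusted p = 0.377) and Sema4a (0.01, adjusted p = 0.972) did not.

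The same libraries held the highest fibroblast marker sums, 66147 counts in old 2 against 45814 and 33419 in old 1 and 3, and 61248 in young 1 against 53374 and 53969 in young 2 and 3. Dcn made up most of the old 2 sum (41603). Col1a1, Col1a2, Col3a1, Dcn and Lum were each highest in old 2 and in young 1. Pdgfra went the other way, highest in old 1 (7150, against 5825 in old 2) and lowest of the young in young 1 (5311). Macrophage marker sums were 15220 in old 2 against 14312 and 10537 in old 1 and 3, and 5413 in young 1 against 4129 and 4416 in young 2 and 3, so that old 2 was close to old 1. Of the bone cell markers, Bglap, Sp7, Runx2, Alpl, Ibsp and Mepe were also highest in old 2 and in young 1. Alpl stood at 758 in old 2 and 1292 in young 1, and Ibsp at 378 and 861. Dmp1 and Phex were highest in old 2 and young 2, and Spp1 was lowest in old 2 and young 1. The part of these tissues was not tested. Without both libraries 19 of the 70 fell and 1 rose (27.1% and 1.43%), against 5.97% and 5.25% of all tested genes. Of these 19, 16 are among the 33 above.

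**Figure D4:**
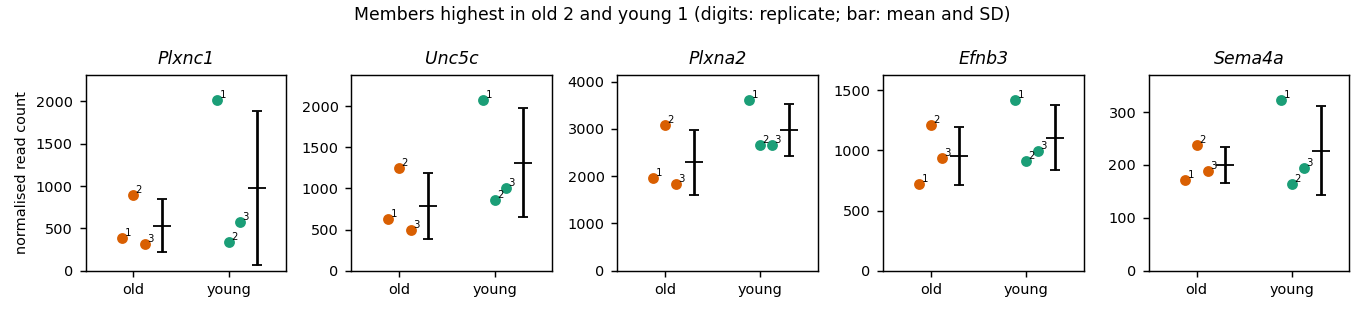
Normalised read counts (y axis, from 0) of 5 guidance genes in old nerves (orange, left) and young nerves (green, right). In these genes old 2 and young 1 each exceeded the next library of their group by at least 25%, a set chosen after the values were seen. Digits give the replicate and bars the mean and SD. The points labelled 2 in old and 1 in young are the highest of their group in every panel, as in Plxnc1 with 891 in old 2 and 2014 in young 1.

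Of the members that changed, 17 that fell and 1 that rose (Plxnb2) passed with each of the 6 libraries left out in turn. The 17 were Sema3e, 6 membrane semaphorins (Sema4c, Sema4f, Sema4g, Sema5a, Sema6d and Sema7a), Plxna4, Plxnd1, Nrp2, Efnb1, Epha5, Ephb2, Ephb3, Ephb6, Slit3 and Dcc. Of the 18, 13 also kept the call once the length and GC trends were taken out, and the exceptions were Dcc, Ephb2, Nrp2, Plxnd1 and Sema6d. The shares of all tested genes that passed in the same ways are not given here, so these counts have no background beside them. On the mm10 build Sema7a lies on chromosome 9 from 57940135 to 57962865, Slit3 on chromosome 11 from 35121456 to 35708507, Sema3e on chromosome 5 from 14025276 to 14256689, Plxnd1 on chromosome 6 from 115954811 to 115995005, Plxna4 on chromosome 6 from 32144557 to 32588192 and Plxnb2 on chromosome 15 from 89155546 to 89180788. Among the old nerves, 13 of the 33 genes that fell (39.4%) were lowest in old 1 and highest in old 3, the order of the neuron marker sum, as were 56.1% of all 2969 genes that fell.

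**Figure D5:**
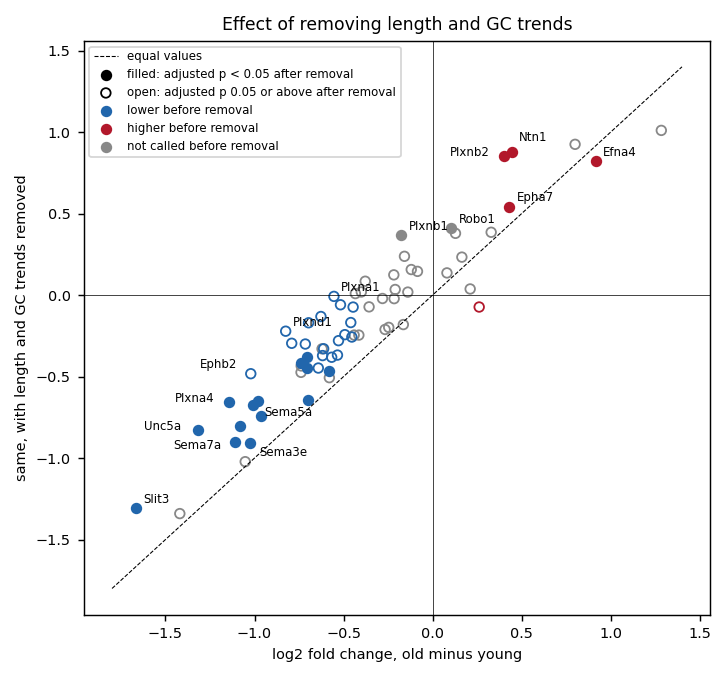
Log2 fold change, old minus young, as measured (x axis) and with trends in transcript length and GC content removed (y axis) for 69 genes, Epha6 being off the scale; the dashed line marks equal values. Filled points pass an adjusted p under 0.05 after removal, and colours give the call before it: Plxnb2 and Ntn1 lie above the line at 0.85 and 0.88, Slit3 stays below -1.3.

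Of 118 tested genes, from a list of further ligands and receptors and of cytoplasmic effectors, 46 fell and 13 rose (39% and 11%, against 18.7% and 15.9% of all tested genes; median log2 fold change -0.20). The list was chosen with earlier results of these data known, so its shares only describe the listed genes. With the trends removed, 9 of 36 further ligands and receptors fell and 6 rose (25% and 16.7%), and 12 of 82 effectors fell and 10 rose (14.6% and 12.2%), where 12.1% of all genes fell and 11.8% rose. The effectors' shares were then near those of all genes. Ptprs, a receptor of proteoglycans, had a log2 fold change of -1.05 ± 0.12 (adjusted p = 0.00464) and Mical3, of the family that links plexins to actin, one of -0.55 ± 0.06. Mical3 did not pass with the trends removed (-0.06, adjusted p = 0.563). Rgmb (-0.67 ± 0.09), which binds the netrin and RGM receptor neogenin, Gpc1 (-0.53 ± 0.07), Ntng2 (-1.38 ± 0.19) and Nfasc (-0.93 ± 0.13) had the next smallest p-values among falls. Gpc1 just missed the threshold with the trends removed (-0.18, adjusted p = 0.0501).

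The rises with the smallest p-values were of Trem2 (2.29 ± 0.20) and Tyrobp (2.09 ± 0.24), which form a receptor complex on macrophages and microglia and which plexin A1 can join in immune cells. Rnd1 (1.04 ± 0.14), a small GTPase that binds plexins, the Unc5 ligand gene Flrt2 (0.57 ± 0.08), the Src family kinase gene Lyn (0.92 ± 0.16) and the cofilin gene Cfl1 (0.37 ± 0.06) rose too. Each of these 6 also passed with the trends removed.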

How the data were processed

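RNA-seq was made from the auditory nerves of 3 old and 3 young mice; libraries were prepared with an Illumina TruSeq RNA kit, per the labels' protocols. The submitters' processing notes name TopHat2, Partek, DESeq2 and the mm10 build; the annotation, and whether counting used strand, are not stated by any source used here. The deposited values are a normalised signal per gene: the authors' read counts divided by a size factor per library. Multiplied back, 99.931% to 99.971% of values per library came within 0.1 of a whole read, 1 read being worth 0.940 to 1.10. Young samples were matched to the columns headed as controls in the deposited table. The deposited p-value, FDR and signed fold columns (score values of the authors' own test) were used only as an alternative, and some genes have no FDR there. The deposited table's total count column was not used in any test.

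Genes were kept by edgeR's filterByExpr on the recovered reads (minimum count 10, minimum total 15), and log2(value + 1) was tested with limma 3.58.1 (R 4.3.3; trend, Benjamini-Hochberg adjustment over 15882 genes, threshold 0.05). Fold changes are on that scale, which understates the change of low genes. Levels per kilobase divide mean values by the length of the longest coding transcript in GENCODE M21. For the length and GC check, smooth trends (mgcv 1.9.3) were removed from each library. Alternatives were edgeR 4.0.16, DESeq2 1.42.0, the authors' FDR, other scalings, filters, pseudocounts and a stricter threshold, and fits without single libraries. The code was tested on simulated data. Members and lists were chosen with earlier results of these data known. Members described were the called ones with a log2 fold change of at least 0.58 in size and a mean of at least 100, and the 2 most abundant of each family; the others are given in brief. Gene coordinates are 1-based on mm10.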

Additional observations from a re-analysis of the deposited data

How the results depend on the processing

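Of 15882 genes 5493 passed, of the 70 guidance genes 38 (33 lower, 5 higher) and of 118 signalling partners 59. With edgeR, 38 guidance genes passed, 37 of them shared; with DESeq2, 42; and by the authors' deposited table, 41, with 37 shared. At an adjusted p under 0.01 the counts were 1866 genes, 12 guidance genes, all 12 lower and 0 higher in limma (6 higher at an unadjusted p under 0.05, and 4 higher in DESeq2 at 0.01), and 28 partners. With 1 library left out, 2589 to 6117 genes passed, 20 to 37 guidance genes, 19 to 32 lower and 1 to 5 higher, and 34 to 58 partners; 20 of the 38 lost the call in at least 1 such fit and 8 others gained it. Without both young 1 and old 2, 1776 genes, 20 guidance genes (19 lower, 1 higher) and 21 partners passed. With length and GC trends removed, 21 guidance genes (15 lower) and 37 partners passed, Plxnb1 turned to 0.37 and Unc50 to -0.073. In each case the cause was not tested beyond what the construction of the alternative removes.

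Same-numbered old and young libraries correlated at -0.291, -0.412 and -0.0499 in their deviations from the group means, and old 2 with young 1 at 0.396. With 3 libraries a group these deviations sum to 0, so the values constrain each other. They cannot exclude that same-numbered libraries were handled together, and pairing by number was not settled. With the replicate number as a block, 2711 genes, 24 guidance genes (22 lower, 2 higher) and 35 partners passed. With the trends removed and the replicate block together, 34 genes, 0 guidance genes (0 lower, 0 higher in limma; 26 at an unadjusted p under 0.05, 19 lower and 7 higher) and 2 partners passed, and Unc50 was at -0.073. A mean floor of 1 or of 100 would give 72 or 64 guidance genes. With 3 mice a group, the limma p-values set the age difference against a spread between mice that is estimated partly from the other genes. Genes with few reads such as Epha6 and Efna3 have wide intervals.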
